A study of Mus musculus with 10 samples.

Results

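Radial glia are the progenitor cells of the developing cerebral cortex. Their bodies line the ventricle, and each sends a long fibre to the outer surface of the brain, along which newborn neurons migrate. They are recognised by a set of structural and metabolic genes, and many of the same genes are used again by astrocytes, the glial cells into which radial glia turn late in development. The 9 genes described here were picked by name as members of that set, with earlier results of these data known, and all 9 were found among the 43629 gene identifiers counted in embryonic mouse dorsal telencephalon, the tissue that forms the cortex. They were the intermediate filament genes Vim and Nes, the fatty acid binding protein gene Fabp7, the glutamate transporter gene Slc1a3 (also called GLAST), the glycolytic enzyme gene Aldoc, the extracellular matrix gene Tnc, the receptor phosphatase gene Ptprz1, the apical membrane protein gene Prom1 and the homeodomain-only gene Hopx.

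The question was how these genes changed upon conditional deletion of Dot1l, the gene for the enzyme that methylates lysine 79 of histone H3. Total RNA was sequenced from C57BL/6 embryos at E14.5, from 5 controls (ctrl) and 5 Dot1l-cKO samples. Controls had 1 floxed Dot1l allele (f/+) and carried no Cre. The Dot1l-cKO samples had both Dot1l alleles floxed (f/f) and 1 Cre allele (Cre/+), which is active in the telencephalon. Deletion of Dot1l and presence of the Cre allele cannot be told apart in this design. The controls were littermates and each sample a different animal according to the study's methods. Because the tissue was sequenced in bulk, fewer cells of a type and less RNA per cell cannot be told apart for any value below.

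Each sample held between 54202349 and 66556034 counts. The 2 mitochondrial ribosomal RNA genes took 0.0471 to 0.492% of the counts in the 4 samples of replicates 2 and 3 and 5.79 to 10.9% in the other 6, in both genotypes, and the genotype difference is therefore also given within each of these sets. Levels are given as CPM, counts divided by the scaled library size and multiplied by 1000000, fold changes as log2 from the edgeR quasi-likelihood test with their standard error (SE), and p-values after Benjamini-Hochberg adjustment over all 17039 genes tested. A gene is called a DE gene (differentially expressed) at an adjusted p under 0.05. Dot1l itself stood at 37.3 ± 4.04 CPM in ctrl samples and at 39.4 ± 11.7 CPM in Dot1l-cKO samples (mean ± SD, n = 5 each; log2 fold change 0.08, adjusted p = 0.864). These counts pool all exons of the gene, so they do not check the deletion. By qRTPCR the study reported significantly less Dot1l mRNA in Dot1l-cKO telencephalon at E14.5.

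Vim, Fabp7, Slc1a3, Aldoc, Tnc and Hopx increased upon Dot1l-cKO. Nes, Ptprz1 and Prom1 did not pass the test. Among all genes tested, 7.11% were DE genes, of which 5.67% of those tested increased and 1.44% decreased, against 6 of the 9 radial glia genes increased and 0 decreased. With the replicate number as a block in the edgeR fit, 6 of the 9 increased and 1, Prom1, decreased, while the decreased genes of the whole table rose from 246 to 495. The median log2 fold change of the 9 genes was 0.43 and that of all tested genes was -0.0056. The same 6 genes were those whose control and Dot1l-cKO samples did not overlap in CPM, which was the case for 8.34% of all tested genes. All 9 genes passed the filter on low counts, and their counts per sample ran from 420 for Hopx to 98554 for Vim. Hopx, Slc1a3 and Prom1 were also listed by the study among changed genes of the progenitor zones in its RNA-seq data, with Prom1 as decreased. A figure legend of the study gives fewer RNA-seq samples per group than are used here. The study reported the same series, so the directions of these genes are not independent evidence.

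**Figure D1:**
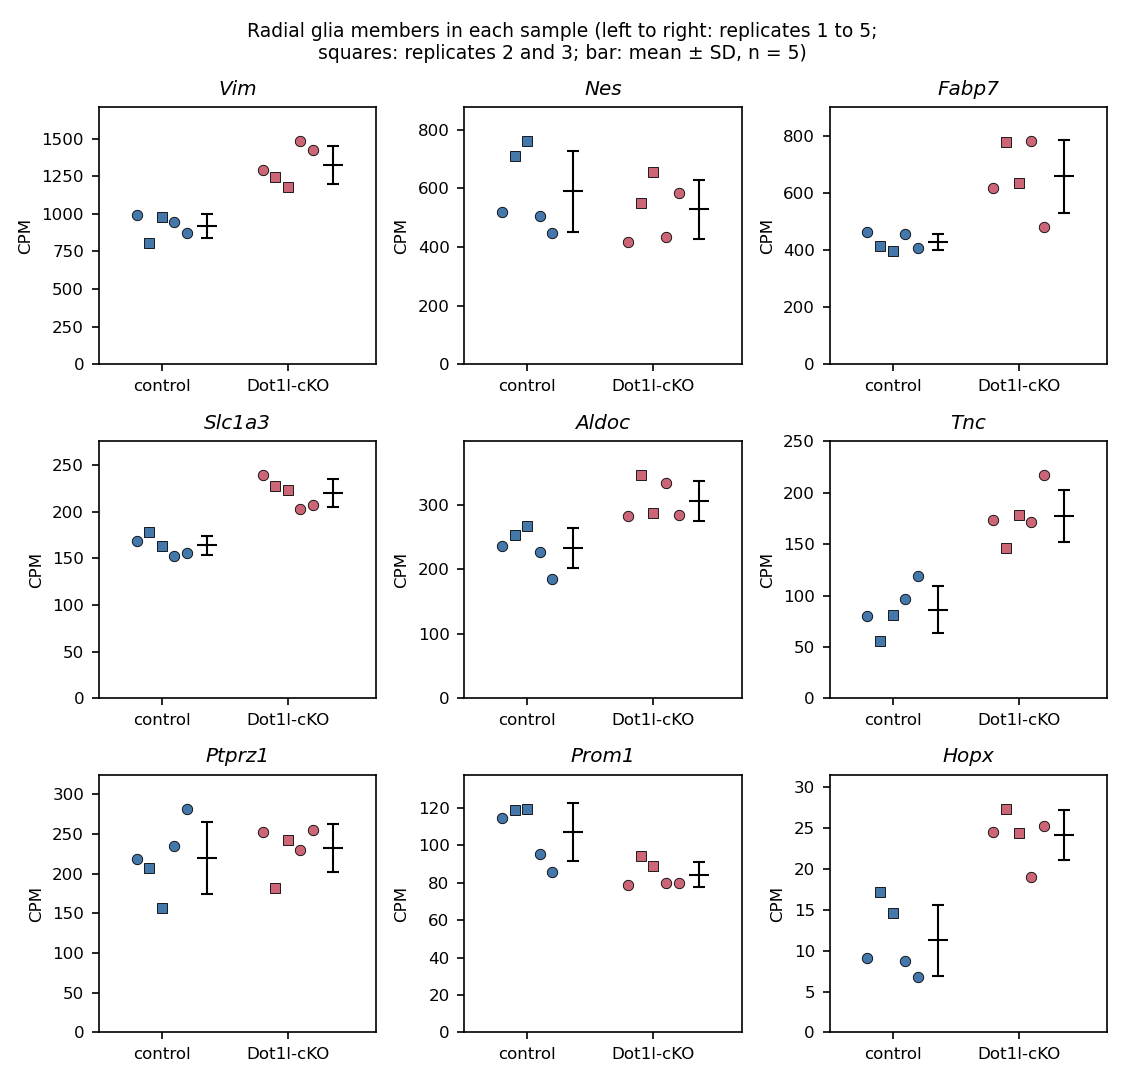
CPM of each of the 9 genes in every sample (y axis from 0), with controls in blue, Dot1l-cKO in red, squares for replicates 2 and 3, and bars for mean ± SD of 5 samples. The groups are separated for Vim, Fabp7, Slc1a3, Aldoc, Tnc and Hopx and overlap for Nes, Ptprz1 and Prom1.

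The promoters of Fabp7, Tnc and Nes are shown because they stand for a gene that rose 1.54-fold, a gene that rose 2.05-fold and a gene that did not pass the test. The sequences are the bases before the RefSeq start (GRCm38.p6), 5' to 3' on the gene's strand, cut where the gene's annotated transcripts begin. Capitals mark matches on either strand to ACAANG (SOX factors), ATTTGCAT (the octamer of POU factors), TAATTA (homeodomain factors), TGGGAA (RBPJ, the DNA-binding partner of Notch), TTGGCA (an NFI half-site) and CTTTGA (TCF/LEF), none of which contains another.
Fabp7, chr10:57784673-57784880, plus strand: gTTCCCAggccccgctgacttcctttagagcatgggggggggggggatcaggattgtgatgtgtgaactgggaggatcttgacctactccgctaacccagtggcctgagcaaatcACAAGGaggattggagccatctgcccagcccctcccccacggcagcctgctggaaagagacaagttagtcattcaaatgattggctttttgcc
Tnc, chr4:64047016-64047265, minus strand: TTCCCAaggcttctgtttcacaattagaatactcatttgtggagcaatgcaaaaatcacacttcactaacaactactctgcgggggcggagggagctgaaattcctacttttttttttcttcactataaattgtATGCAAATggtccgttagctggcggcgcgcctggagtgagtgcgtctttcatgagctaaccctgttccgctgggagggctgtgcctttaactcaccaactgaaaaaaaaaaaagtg
Nes, chr3:87970843-87971077, plus strand: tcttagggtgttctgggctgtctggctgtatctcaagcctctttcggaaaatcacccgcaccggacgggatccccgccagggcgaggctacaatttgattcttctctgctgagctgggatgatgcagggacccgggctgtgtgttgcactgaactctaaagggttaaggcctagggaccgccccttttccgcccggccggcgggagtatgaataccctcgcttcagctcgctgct

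Over the full 250 bases before the start, the Fabp7 window held TGGGAA 249 bases and ACAANG 135 bases before the start. The printed Tnc window held the octamer 116 bases and TGGGAA 250 bases before its start. Tnc has a second RefSeq start inside the gene, whose window overlaps the printed one and held the same octamer 195 bases, TGGGAA 81 bases and TTGGCA 19 bases before that start. The Nes window held none of the 6 motifs. Among 32851 promoter windows of the same length, 36.3% held ACAANG, 21.6% TGGGAA, 13.8% CTTTGA, 12.3% TTGGCA, 4.84% TAATTA and 1.601% the octamer. The octamer was found in no other of the 9 genes, and TAATTA in none. All 9 genes were found in the RefSeq table. Their windows numbered 13, as Tnc, Prom1, Hopx and Aldoc each have more than 1 start. ACAANG stood in 5 of the 13 (Fabp7, Hopx, Prom1, Slc1a3 and Vim) and TGGGAA in 6 (Aldoc, Fabp7, Prom1 and Tnc). TTGGCA stood in 2 (Aldoc and Tnc) and CTTTGA in 1 (Aldoc). Prom1, which did not pass the test, thus held ACAANG and TGGGAA, and Ptprz1, which also did not, held none of the 6. Whether the motifs go with the change was not tested. A match gives only the letters present and was not tested as a binding site.

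Vim and Nes code for the intermediate filaments vimentin and nestin, which run through the radial fibre. Vim (chr2:13573927-13582826 on the plus strand of GRCm38, the build the files use under its other name mm10) stood at 995, 806, 978, 946 and 871 CPM in the controls, replicates 1 to 5 in turn. The cKO samples, in the same order, gave 1291, 1242, 1177, 1486 and 1421 CPM. The lowest Dot1l-cKO sample was above the highest control. The mean rose from 919 ± 79.2 to 1323 ± 128 CPM, 1.44-fold, with a log2 fold change of 0.53 (SE 0.09, adjusted p = 0.00451). Vim was also higher in Dot1l-cKO in all 5 pairs of samples that share a replicate number. This follows from the groups not overlapping and adds no further evidence.

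Nes (chr3:87971078-87980451, plus strand) gave 519, 711, 762, 506 and 449 CPM in the controls. The Dot1l-cKO samples gave 418, 548, 656, 435 and 585 CPM. Replicates 2 and 3 were the 2 highest controls, and the groups overlapped over most of their range. The means were 589 ± 138 and 529 ± 101 CPM, with a log2 fold change of -0.16 (SE 0.17, adjusted p = 0.661) and a 95% interval from -0.53 to 0.22. That interval does not reach the increase measured for Vim. Vim CPM divided by Nes CPM ranged from 1.13 to 1.94 in the controls and from 1.79 to 3.41 in Dot1l-cKO, and these ranges overlap. The ratio is a description and was not tested.

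Fabp7, Slc1a3 and Aldoc code for metabolic proteins of radial glia. Fabp7 (also known as BLBP, brain lipid binding protein) carries fatty acids, Slc1a3 takes up glutamate with sodium, and Aldoc is the brain aldolase of glycolysis. Fabp7 (chr10:57784881-57788450, plus strand) stood at 464, 415, 399, 458 and 410.1 CPM in the controls, the narrow spread of a coefficient of variation of 6.86%. In Dot1l-cKO it stood at 618, 779.8, 635, 785 and 481 CPM, a coefficient of variation of 19.2%. Replicates 2 and 4 were the highest Dot1l-cKO samples, and replicate 5 was the lowest, just above the highest control. The mean rose from 429 ± 29.5 to 659.8 ± 127 CPM (1.54-fold, log2 fold change 0.62, SE 0.12, adjusted p = 0.0122).

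Slc1a3 (chr15:8634124-8710764, minus strand) had the smallest spread of the 9 genes between replicates, with coefficients of variation of 6.29% in the controls and 6.80% in Dot1l-cKO. The controls were at 169, 179, 163, 153 and 156 CPM. The Dot1l-cKO samples were at 239.7, 227, 223, 203 and 208 CPM. Every Dot1l-cKO sample lay above every control, and the difference within same-numbered samples ran only from 0.34 to 0.51 in log2 CPM. The mean rose from 164 ± 10.3 to 220.1 ± 15.0 CPM (1.34-fold, log2 fold change 0.43, SE 0.07, adjusted p = 0.00447). Gm37310, a transcript annotated on the same strand within the Slc1a3 gene, was at 0.693 CPM on average in controls and 0.925 CPM in Dot1l-cKO (log2 fold change 0.41, adjusted p = 0.569).

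Aldoc (chr11:78322968-78327781, plus strand) was at 235, 253, 267, 227 and 185 CPM in the controls. In Dot1l-cKO it was at 282, 347, 287, 333 and 283 CPM. The groups did not overlap, but the lowest 3 Dot1l-cKO samples were close to the highest control. The mean rose from 234 ± 31.0 to 306 ± 31.0 CPM (1.31-fold, log2 fold change 0.39, SE 0.10, adjusted p = 0.0463). This was the least secure of the 6 calls. It was lost when any sample other than control replicate 3 was left out, with adjusted p-values over the 10 such fits from 0.0317 to 0.110 and log2 fold changes from 0.32 to 0.44.

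Tnc and Ptprz1 belong to the extracellular side of the radial glia. Tenascin C, the product of Tnc, is a large matrix glycoprotein, and the receptor phosphatase made from Ptprz1 is among the surface proteins that bind it. Tnc, the gene whose promoter held the octamer (chr4:63959785-64047015, minus strand) was at 80.1, 55.3, 81.5, 96.4 and 119 CPM in the controls. In Dot1l-cKO it was at 173, 146, 178, 171 and 218 CPM. Every Dot1l-cKO sample exceeded every control. The mean rose 2.05-fold from 86.4 ± 23.2 to 177 ± 25.7 CPM, with a log2 fold change of 1.04 (SE 0.18, 95% interval 0.65 to 1.43, adjusted p = 0.00531). The overlapping antisense gene 8030451A03Rik stood at 0.0517 CPM on average in controls and 0.114 CPM in Dot1l-cKO and was too low to test, and the counting used strand.

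Ptprz1 (chr6:22875502-23052916, plus strand) was at 219, 207, 157, 235 and 282 CPM in the controls. It was at 253, 182, 243, 229.9 and 255 CPM in Dot1l-cKO. The groups overlapped, and the control samples held both the lowest and the highest value. The means were 219.9 ± 45.3 and 232 ± 30.01 CPM (log2 fold change 0.08, SE 0.14, 95% interval -0.24 to 0.40, adjusted p = 0.809). Tnc CPM divided by Ptprz1 CPM was 0.267 to 0.520 in the controls and 0.685 to 0.854 in Dot1l-cKO, without overlap. Over all genes tested, 7.11% passed in either direction. Of 15 further tested genes for ligands, matrix partners and receptors connected with these proteins, 0 passed the test in either direction, with a median log2 fold change of -0.08. The highest were Cntn1, for a contactin of axons (log2 fold change 0.38, adjusted p = 0.111), and Vcan, for the matrix proteoglycan versican. Vcan stood at 353 ± 45.3 CPM in ctrl samples and 460.2 ± 96.7 CPM upon Dot1l-cKO (log2 fold change 0.38, adjusted p = 0.139). Vcan passed once the replicate number entered the edgeR fit as a block (adjusted p = 0.0407). Both genes were picked after their values were seen.

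Prom1 codes for prominin, a membrane protein of the apical surface that faces the ventricle, and it was the 1 gene of the 9 to be lower in Dot1l-cKO in all 5 same-numbered pairs. Prom1 (chr5:43993620-44102032, minus strand) was at 115, 119, 119.7, 95.5 and 85.6 CPM in the controls. In Dot1l-cKO it was at 78.7, 94.1, 89.0, 80.1 and 79.8 CPM. Control replicates 4 and 5 lay within or near the Dot1l-cKO range, so the groups overlapped. The mean fell from 107 ± 15.5 to 84.3 ± 6.83 CPM, with a log2 fold change of -0.34 (SE 0.10, 95% interval -0.57 to -0.12), but the adjusted p was 0.0747. With the replicate number as a block in the edgeR fit the log2 fold change was -0.33 and Prom1 passed the test (adjusted p = 0.0300). It also passed without control replicate 5 (log2 fold change -0.41, adjusted p = 0.0203) and with DESeq2 (-0.37, adjusted p = 0.0147). Gm16401, annotated antisense at the Prom1 locus, was at 2.60 CPM on average in controls and 2.26 CPM in Dot1l-cKO (adjusted p = 0.508). The 16 tested genes of apical junctions and polarity, such as those for N-cadherin and the Par complex, had a median log2 fold change of -0.14, and 0 of them passed the test in either direction. Over all genes tested, 7.11% passed.

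Hopx codes for a small homeodomain protein without DNA binding of its own and is used as a marker of the outer radial glia that leave the ventricle. Hopx (chr5:77086988-77115121, minus strand) was at 9.05, 17.1, 14.6, 8.74 and 6.78 CPM in the controls. In Dot1l-cKO it was at 24.5, 27.4, 24.4, 19.0 and 25.2 CPM. All Dot1l-cKO samples were above all controls, and among the controls replicates 2 and 3 stood above the other 3. The mean rose 2.14-fold from 11.2 ± 4.37 to 24.1 ± 3.07 CPM (log2 fold change 1.10, SE 0.23, 95% interval 0.59 to 1.61, adjusted p = 0.0153). The coefficient of variation was 38.9% in the controls, the highest of the 9 genes, and 12.8% in Dot1l-cKO. Hopxos, the antisense gene at this locus, was at 0.127 CPM on average in controls and 0.246 CPM in Dot1l-cKO (log2 fold change 0.92, SE 0.37, adjusted p = 0.182).

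**Figure D2:**
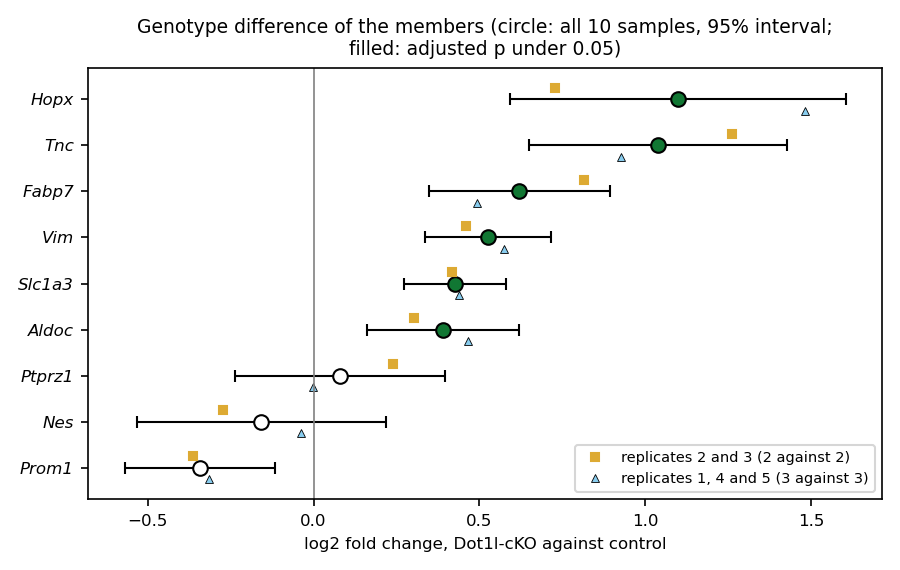
Log2 fold change of Dot1l-cKO against control for each gene from all 10 samples (circles, with 95% intervals, filled where the adjusted p is under 0.05), with the fits on replicates 2 and 3 (squares) and on replicates 1, 4 and 5 (triangles). Hopx and Tnc lie near 1, Fabp7, Vim, Slc1a3 and Aldoc between 0.39 and 0.62, and the intervals of Ptprz1 and Nes span 0.

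The genotype difference of the 6 increased genes was positive within both library sets. This sign follows from their groups not overlapping and adds no further evidence. Among replicates 1, 4 and 5 (3 against 3), Vim, Slc1a3, Tnc and Hopx passed the test, with log2 fold changes of 0.57, 0.44, 0.93 and 1.48. Fabp7 (0.49, adjusted p = 0.139) and Aldoc (0.47, adjusted p = 0.0678) did not. Among replicates 2 and 3 (2 against 2), edgeR called 1 gene in the whole table, which was not a radial glia gene, and the log2 fold changes of the 6 genes ran from 0.30 for Aldoc to 1.26 for Tnc. Hopx showed the widest gap between the sets, 1.48 against 0.73, and the interaction of genotype and set had an unadjusted p of 0.00759 and an adjusted p of 0.728 in edgeR. No gene of the table passed the test of that interaction (0 of 17039, or 0%). An unadjusted p under 0.05 was found for 1071 genes (6.29%), close to the share that this threshold lets through where no gene differs.

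**Figure D3:**
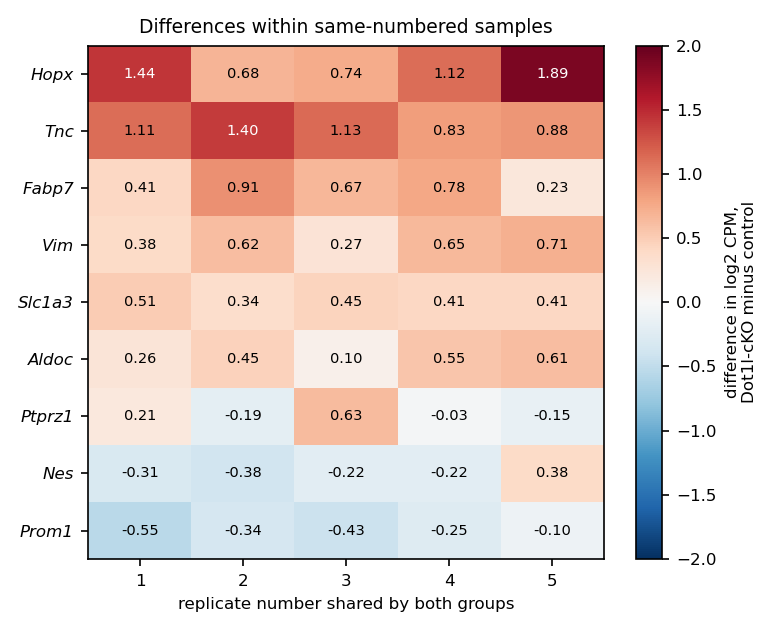
Difference in log2 CPM, Dot1l-cKO minus control, between samples of the same replicate number (columns) for each gene (rows), red where higher in Dot1l-cKO and blue where lower. Hopx, Tnc, Fabp7, Vim, Slc1a3 and Aldoc are positive in all 5 columns, which follows from their groups not overlapping. Prom1 is negative in all 5, Nes is positive in 1 and Ptprz1 in 2.

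Levels of different genes were compared per exon length, as CPM per 1000 bases of the gene's joined exons (RPKM). In the controls Fabp7 was the highest at 343 ± 23.6 RPKM, followed by Vim at 194 ± 16.7 RPKM. Nes at 91.9 ± 21.5 RPKM and Aldoc at 71.6 ± 9.51 RPKM came next and overlapped. Slc1a3 (19.2 ± 1.21 RPKM), Ptprz1, Prom1, Tnc and Hopx (7.42 ± 2.89 RPKM) formed a lower tier in which each gene overlapped its neighbour. In Dot1l-cKO the order at the top was unchanged, with Fabp7 at 528 ± 102 RPKM and Vim at 279 ± 26.9 RPKM. Aldoc (93.9 ± 9.52 RPKM) then stood above Nes (82.4 ± 15.7 RPKM), though the 2 overlapped. In the lower tier Tnc moved from 11.1 ± 2.99 RPKM, below Ptprz1 and Prom1, to 22.8 ± 3.30 RPKM, above both. Prom1 was last in Dot1l-cKO at 11.8 ± 0.952 RPKM, overlapping Hopx at 15.9 ± 2.03 RPKM.

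**Figure D4:**
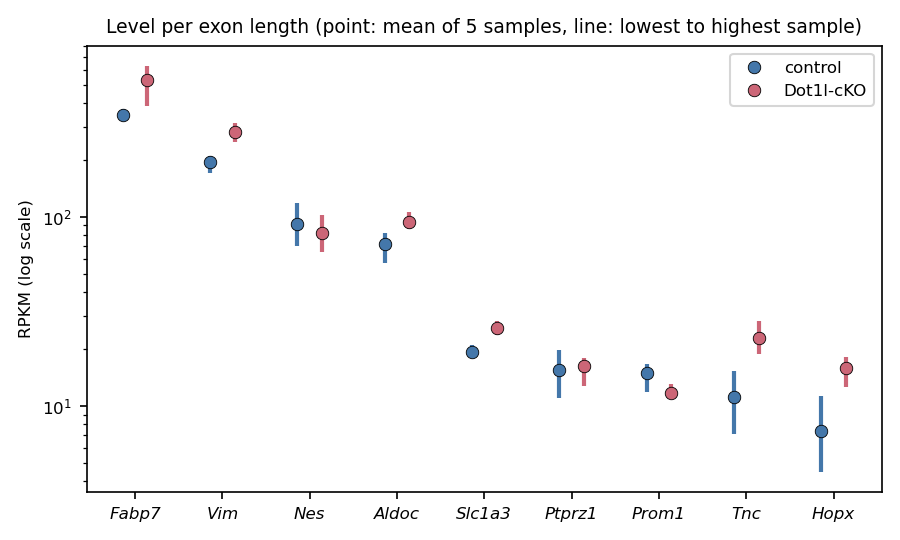
RPKM (log axis) of the 9 genes in the order of the control means, with the mean of 5 samples as a point and the lowest to highest sample as a line, controls in blue and Dot1l-cKO in red. Fabp7 and Vim lead in both groups, and Tnc and Hopx at the right rise by the largest step.

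Relatives of the 9 genes in sequence family were read from the same fit. Of 12 tested paralogues, 3 increased and 0 decreased (median log2 fold change 0.18), against 5.67% and 1.44% of all genes tested. Gfap, the intermediate filament gene of mature astrocytes, rose from 0.164 ± 0.0525 to 0.938 ± 0.375 CPM, with 6 to 14 counts per control and 29 to 91 counts per Dot1l-cKO sample (log2 fold change 2.50, SE 0.34, adjusted p = 0.00146). Synm, whose product synemin assembles with vimentin, rose from 8.57 ± 1.27 to 15.0 ± 2.33 CPM (log2 fold change 0.80, adjusted p = 0.00491). Slc1a1, a neuronal glutamate transporter, rose from 30.1 ± 4.55 to 43.0 ± 2.98 CPM (0.51, adjusted p = 0.0118). Other paralogues of the increased genes did not pass the test. Among the fatty acid binding protein genes, Fabp3 had a log2 fold change of 0.52 (adjusted p = 0.221) and Fabp5 one of 0.17 (adjusted p = 0.284). Aldoa had a log2 fold change of 0.18 (adjusted p = 0.121). Slc1a2, for the other main glial glutamate transporter, had one of 0.06 (adjusted p = 0.904). Prom2 was under 0.5 CPM in every sample and was not tested.

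Transcription factors of the ventricular zone, many of which hold radial glia in their progenitor state, lay on the other side of 0. Of 15 tested, 2 decreased and 0 increased, and 1 had a positive log2 fold change (median -0.32). Over all genes tested, 1.44% decreased and 5.67% increased. Nr2e1, the gene for the nuclear receptor Tlx that maintains neural stem cells, fell from 47.6 ± 5.41 to 29.1 ± 5.62 CPM (log2 fold change -0.71, adjusted p = 0.0114). Pax6, which sets cortical progenitor identity, fell from 121 ± 13.5 to 94.1 ± 6.52 CPM (log2 fold change -0.36, adjusted p = 0.0294). With the replicate number as a block the count was 4, with Sox2 (adjusted p = 0.00906) and Nfib (adjusted p = 0.0285) added. The count depended on single libraries: it was 1 without any of control replicates 1, 2 and 4 or Dot1l-cKO replicates 1 and 3, and 4 without control replicate 5.

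Beside the 5.67% of all tested genes that increased and the 1.44% that decreased, 2 more lists were read. Of 20 further genes of radial glia, 3 increased and 0 decreased (median 0.07). They were Pla2g7, for a secreted phospholipase (3.98 ± 0.422 to 8.50 ± 1.57 CPM, log2 fold change 1.09, adjusted p = 0.00111), Mt3, for a metallothionein of the brain (0.64, adjusted p = 0.0169), and Ednrb, for the endothelin B receptor (0.45, adjusted p = 0.0143). Only Pla2g7 of these passed within replicates 1, 4 and 5. Among 15 tested astroglial genes 3 increased, 0 decreased and 13 were positive (median 0.35). Besides Gfap these were Aqp4, the water channel gene (1.34 ± 0.288 to 5.09 ± 0.878 CPM, log2 fold change 1.92, adjusted p = 0.000207), and Cst3, for cystatin C (0.52, adjusted p = 0.00571). S100b was under 0.5 CPM in every sample. Without control replicate 3 the astroglial count was 5.

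**Figure D5:**
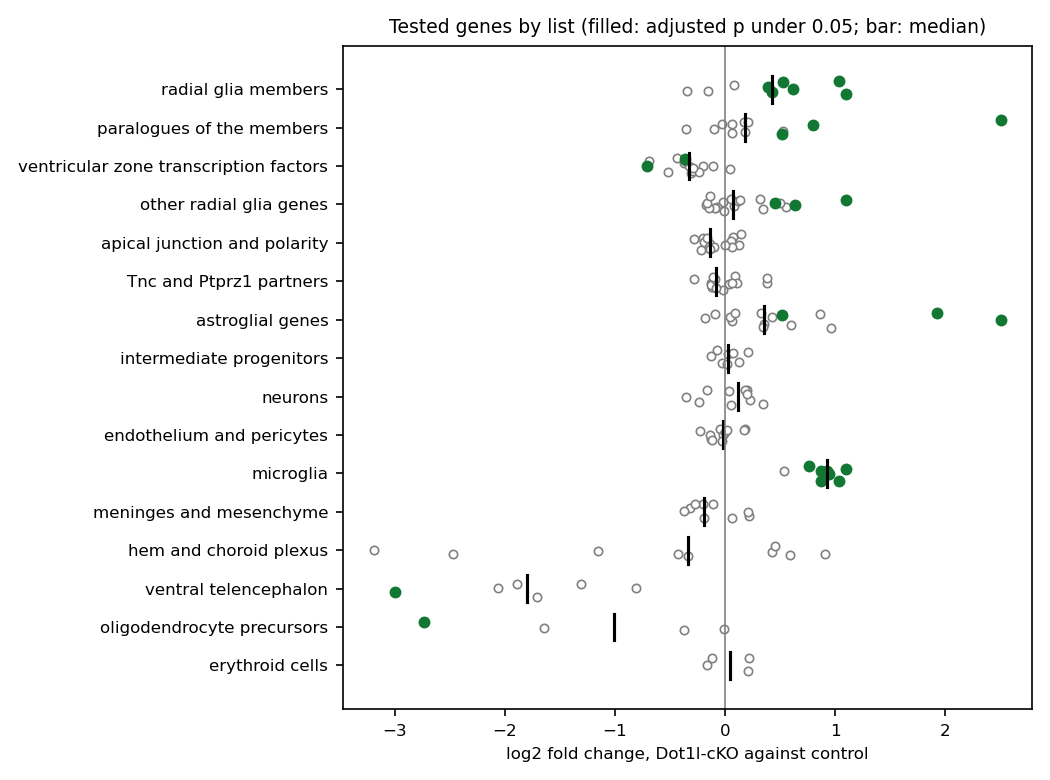
Log2 fold change of Dot1l-cKO against control of each tested gene, grouped by gene list, filled where the adjusted p is under 0.05, with a bar at each list's median. The radial glia genes, astroglial genes and microglia lie mostly to the right of 0 and the ventricular zone transcription factors mostly to the left. All tested genes of the ventral telencephalon and of oligodendrocyte precursors also lie to the left.

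Markers of other cell types were read beside these results, with 5.67% of all tested genes increased and 1.44% decreased. Intermediate progenitor genes (0 of 8 called in either direction, summed level 827 to 1191 CPM in ctrl and 964 to 1135 CPM in cKO samples) and neuronal genes (0 of 10, 4194 to 5954 against 4816 to 5805 CPM) overlapped between the groups, and Neurod2 passed with the replicate block (adjusted p = 0.0206). Microglia markers moved with genotype: 8 of 9 increased, among them P2ry12 (3.19 to 6.84 CPM), C1qa, C1qb, C1qc and Cx3cr1, and their sum was 39.4 to 70.9 CPM in ctrl and 81.3 to 121 CPM in cKO samples. Without control replicate 1 this count was 4. Without control replicates 2 or 4 or Dot1l-cKO replicates 1, 4 or 5 it was 5. It was 8 within replicates 1, 4 and 5 and with DESeq2, and 7 with the replicate block. Within replicates 2 and 3 it was 0, in a fit that called 1 gene of the whole table. Microglia can express some of the 9 genes, Vim among them, and their part in the result was not tested. Markers of endothelium and pericytes (0 of 12, 239 to 387 against 210.1 to 439.9 CPM), meninges (0 of 9, 25.7 to 869 against 31.5 to 797 CPM), choroid plexus and hem (0 of 9, 12.4 to 665 against 16.8 to 199.6 CPM) and erythroid cells (0 of 4, 202 to 932 against 302 to 916 CPM) overlapped between the groups. Genes of the ventral telencephalon were lower in Dot1l-cKO by a median log2 fold change of -1.80, with Lhx6 called (30.4 ± 12.4 to 3.79 ± 2.20 CPM, adjusted p = 0.00187) and sums of 58.0 to 247 against 15.4 to 80.9 CPM. Of 4 genes of oligodendrocyte precursors Sox10 decreased, at a low level of 19 to 45 counts per ctrl and 2 to 8 counts per cKO sample. With at least 10 counts required in every sample, 0 of the 4 were called. The summed level of the 4 genes was 18.1 to 55.8 CPM in ctrl and 8.22 to 57.1 CPM in cKO samples. The part of the ventral and oligodendrocyte genes in the result was likewise not tested.

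For each increased gene, the genes with the most similar profile were found by the root mean square difference of log2 CPM, centred on each gene's own mean, over the 10 samples and 12658 genes. Fabp7 was closest to Mt3 (0.103), the metallothionein gene above, then to Mlc1 (0.128), for a membrane protein of astrocytes, and Rwdd3 (0.130), where the median over all compared genes was 0.407. Slc1a3 was closest to Ispd, Edil3 and Cnr1 (0.0614 to 0.0736, median 0.296). Aldoc was closest to Avpi1 and Lyplal1 (0.0367 and 0.0708, median 0.315). Vim was closest to Vipr1, Ech1 and Pgghg (0.0820 to 0.0893, median 0.351). Tnc was closest to Nptxr, Ndrg1 and Ccdc80 (0.144 to 0.177, median 0.645). Hopx had the loosest neighbours, Naaa, Tmem229a and Prrx2 (0.207 to 0.223, median 0.719). Both the genotype and the library sets enter these distances.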

How the data were processed

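Total RNA of 10 embryonic samples, depleted of ribosomal RNA, was sequenced in a stranded, paired-end protocol. Per the labels and the study's methods, the authors trimmed reads with Trim Galore 0.2.8, mapped them to mm10 with TopHat2 2.0.9, counted them per Ensembl gene with HTSeq 0.6.0 in its reverse-stranded mode, and normalised with DESeq2 1.6.1. The deposited raw counts were the main data. The deposited normalised signal holds the same counts divided by 1 size factor per sample and served as an alternative. Symbols and exon lengths came from GENCODE on GRCm38 (42462 of 43629 identifiers had a symbol), and promoters from RefSeq. Exons of all isoforms were joined, which lowers RPKM where isoforms differ.

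Differences were tested with edgeR 4.0.16 in R 4.3.3 (filterByExpr, TMM, quasi-likelihood F test, Benjamini-Hochberg over 17039 genes, no covariate), and the fit was first tested on simulated counts. The SE is the log2 fold change divided by the root of F, and intervals use the t quantile. log2 CPM used a prior count of 2. Alternatives were DESeq2 1.42.0, limma 3.58.1 on log2(value + 1), other scaling and filters, a replicate block, subsets of samples and each sample left out. Same-numbered samples correlated in their deviations from their group means (0.166 to 0.666 over 12659 genes, all 5 over 0.1). Only in replicates 1 and 4 were the same-numbered samples each other's best match, and not in replicates 2, 3 and 5. Pairing by number is therefore uncertain, and it was used only in the replicate block and the same-numbered differences. No replicates were identical or near identical.

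Named genes were all 9 radial glia genes, at most 4 called genes per direction with the largest change in each other list, the 3 most similar genes of each called one, and Dot1l. Some genes that this rule names are not reported here. Genes named outside that rule, such as paralogues that were not called, were picked after their values were seen. Members and lists were chosen with earlier results of these data known. One listed symbol of 172, Pals1, had no match under that name, and genes such as Gfap, Slc1a2, Cdh2 and Fgfr3 each stand in more than 1 list.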

Additional observations from a re-analysis of the deposited data

Results flagged for a closer look

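Among 22 groups of 5 samples examined (among them the 9 radial glia genes and Dot1l in each genotype), 1 held a sample that stood apart by Dixon's criterion, where chance flags about 1 group in 20. Dot1l in Dot1l-cKO replicate 2 was at 20.1 CPM (4.33 in log2 CPM, against a group median of 5.40), and its gap to the nearest sample was 0.717 of the group's range. As in every Dot1l-cKO sample, the 6 radial glia genes that increased were higher in that sample than in every control. Without that sample Aldoc was no longer called in edgeR (log2 fold change 0.34, adjusted p = 0.0923).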

How the results depend on the processing

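Vim, Slc1a3 and Tnc passed at an adjusted p under 0.01, while Fabp7 (0.62), Hopx (1.10) and Aldoc (0.39, their log2 fold changes) did not, and the radial glia genes increased were then 3. With replicates 2 and 3 only, 0 of them passed, with Fabp7 at 0.82, Slc1a3 at 0.42, Vim at 0.46, Hopx at 0.73, Tnc at 1.26 and Aldoc at 0.30. With replicates 1, 4 and 5 only, Fabp7 was at 0.49 and Aldoc at 0.47 and neither passed. Aldoc also missed with DESeq2 size factors in edgeR (0.36), without the low-count filter (0.38) and with limma (0.37). Leaving out 1 sample gave 5 to 6 radial glia genes increased and 0 to 1 decreased, and Aldoc ran from 0.32 to 0.44. Prom1 passed in edgeR with the replicate block (-0.33), with the number opening the column names of the normalised tables as a block (-0.33) and in DESeq2 (-0.37), each giving 1 decreased, and it ran from -0.41 to -0.30 with 1 sample left out. Ptprz1 changed sign with replicates 1, 4 and 5 only (-0.00077), and ran from -0.021 to 0.18 with 1 sample left out. The replicate block changed no other radial glia gene's call, and of the list genes it added Sox2, Nfib, Acadl, Vcan and Neurod2 and lost Aif1. The cause of these shifts was not tested.

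Of all genes, the number called (increased, decreased) was 495 (422, 73) at an adjusted p under 0.01, 1 (1, 0) with replicates 2 and 3 only, and 745 (590, 155) with replicates 1, 4 and 5 only. DESeq2 called 2011 genes, 663 of them decreased. The block raised the decreased genes from 246 to 495 and the header number block to 597. Leaving out 1 sample gave 750 to 1357 called, 624 to 1076 increased and 126 to 343 decreased, with 750 without control replicate 1 and 779 without control replicate 4. Of the ventricular zone transcription factors, 4 decreased with DESeq2 size factors in edgeR, 5 with limma and 6 with DESeq2. Among replicates 2 and 3 the fit had few samples, so its missed calls say nothing about stability. The lowest count of a radial glia gene in any sample was 420, and what limited the calls was not tested.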
